A study of Mus musculus with 1 sample.

Results

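The MC38 tumor cells with high Col3a1, the transcript of type III collagen, were 730 of the 1685 tumor cells and of the 5307 called cells in 1 single-cell RNA library of control MC38 tumors. MC38 is a mouse colon carcinoma line, here grown in C57BL/6J mice, which the methods of the study give as female and 4 to 6 weeks old at purchase. The cells of 5 tumors were mixed in equal proportions and sequenced as 1 library with 3' v3.1 chemistry, so there is 1 sample, no cell can be traced to its tumor, and no test between samples was possible. The label gives the genotype as WT and names no shRNA, and the methods describe the control arm as shNTC, MC38 cells with a non-targeting control.

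A tumor cell was a cell with at least 200 genes, at most 20% mitochondrial UMIs and at least 5000 UMIs (distinct captured transcripts), at least 3 UMIs of Rhox5 and Shisal2b together, fewer than 3 UMIs of Tyrobp and Fcer1g per 10000 and fewer than 2 UMIs of Col1a2 per 10000. Rhox5 and Shisal2b mark MC38 cells in this library, Tyrobp and Fcer1g are signaling adaptors of myeloid cells, and Col1a2 encodes a chain of type I collagen made by fibroblasts. The members had at least 10 Col3a1 UMIs per 10000 UMIs of the cell, and the 955 tumor cells below that limit served for comparison. Measured values therefore chose the members, and every difference between the groups is a description of these cells. The high cells were 43.3% of the tumor cells (exact Clopper-Pearson interval 40.9% to 45.7%). All intervals cover counting error at 95% and no variation between tumors. Intervals of pooled levels and ratios also leave out variation between cells.

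Type III collagen is a fibrillar collagen that assembles together with types I and V in loose connective tissue, wounds and tumor stroma. Fibroblasts are its main source. Carcinoma cells that take on mesenchymal features can also transcribe genes of the extracellular matrix, which is built from collagens, adhesive glycoproteins such as fibronectin, and proteoglycans, and which matrix proteases remodel.

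Col3a1 formed a single continuous range over the tumor cells, with no gap at the limit. In the high cells it ran from 10.0 to 225 UMIs per 10000, with a median of 19.4 and quartiles of 14.1 and 32.3. In the low cells the median was 3.96, the highest cell had 9.97, and 21 cells had no Col3a1 UMI. Just inside the limit, 96 members had between 10 and 12 UMIs per 10000 (median 10.9), and just outside it, 109 low cells had between 8 and 10 (median 8.81). Both groups therefore met in the middle of one distribution. Myeloid-like cells, which should lack the transcript, had a median of 0.923 per 10000, and 408 of 1264 of them had none.

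**Figure D1:**
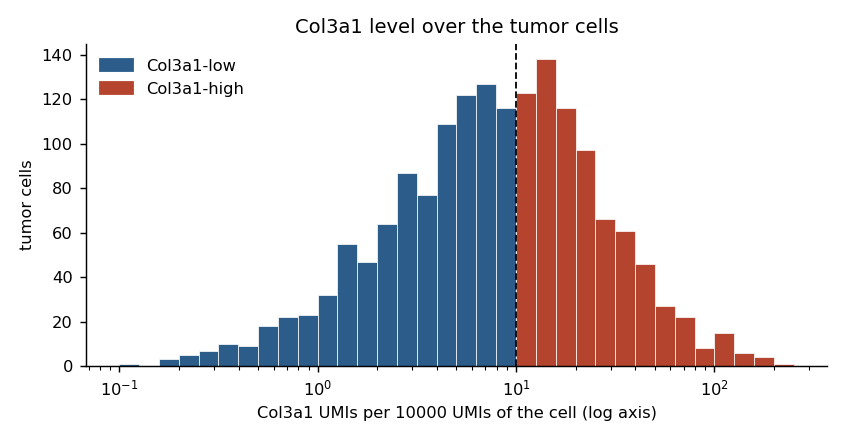
Histogram of the Col3a1 level of single tumor cells, as Col3a1 UMIs per 10000 UMIs of the cell on a log axis, against the number of cells. Blue bars are the low cells and red bars the high cells, divided at 10 by the dashed line; the 21 cells without a Col3a1 UMI are not drawn, and no gap separates the groups.

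The high cells were shallower than the low cells. Their median was 34726 UMIs and 5208 genes per cell, against 53166 UMIs and 5928 genes, and their median mitochondrial share was 3.45% against 2.30%. Their UMIs summed to 27243300, against 52412026 in the low cells. A level below is the pooled count of a gene in a group, in parts per 1000000 of everything the group's cells captured (CPM), so it compares shares of the captured transcripts and not numbers per cell. Ratios are the level in the high cells divided by that in the low cells, with exact Poisson intervals.

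Rhox5 and Shisal2b chose the tumor cells, and few UMIs of them chose the fibroblast-like cells, so their levels only describe that choice. Rhox5, a homeobox gene of the X chromosome, was at 714 CPM in the high cells and at 687 CPM in the low cells, against 46.9 CPM in 21 fibroblast-like cells of the same library. Shisal2b was at 152 and 252 CPM, and at 3.35 CPM in the fibroblast-like cells. Xist, the RNA that coats the inactive X chromosome of female cells, was not part of the choice. It was at 3.52 CPM in the high cells (96 UMIs) and 1.93 CPM in the low cells (101 UMIs), a ratio of 1.83 (1.37 to 2.44). In the fibroblast-like cells it was at 532 CPM and in the myeloid-like cells at 710 CPM. GEO's label names the cell type epithelial, but of 23 epithelial genes none reached the level needed for comparison. Together they had 77 UMIs in the high cells (2.83 CPM) and 67 UMIs in the low cells (1.28 CPM). In the high cells 12 of the genes had none, and Krt18 and Krt19, keratins of simple epithelia, were among those 12. Low epithelial levels were thus common to both groups. The high cells were described by Col3a1 and not as epithelial cells.

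Of 7092 genes with a mean of at least 10 CPM over both groups, 142 (2.0%) were at least 2-fold higher in the high cells and 16 (0.226%) at least 2-fold lower. The 6 genes that chose the cells were left out. Ratios were above 1 for 4023 of the 7092 genes. These shares over all genes are the background for the list counts below. The median log2 ratio of all genes was 0.06. Each group was divided by its own total, so this value does not show that the cells captured equal amounts of RNA. Among the 2549 genes at 50 CPM or more, 50 were at least 2-fold higher and 6 at least 2-fold lower. The highest ratios among these belonged to H19, Postn and Ifi27l2a, and the lowest to Hmga1, Tnfrsf12a and Klra4.

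**Figure D2:**
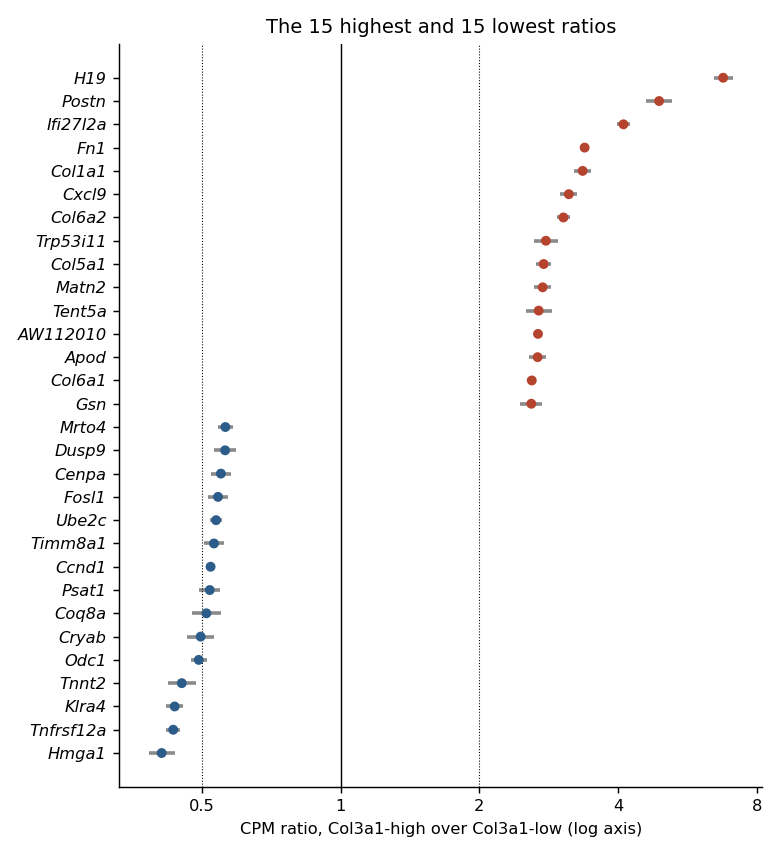
CPM ratio of the high over the low cells, on a log axis, for the 15 genes with the highest and the 15 with the lowest ratio among genes at 50 CPM or more. Points are ratios of pooled UMIs, gray bars are 95% exact Poisson intervals, and dotted lines mark 2-fold; H19 at 6.76 stands highest and Hmga1 at 0.409 lowest.

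The promoters of 6 genes were read from RefSeq (GRCm38.p6), as the 250 bases before and 50 bases after a transcript start, to show the letters beside the levels. Col3a1, on chromosome 1 (chr1:45311538-45349706, plus strand), chose the cells, and Postn had the highest ratio among the abundant genes with a window. Capitals mark TATAAA, the core of a TATA box, on either strand.

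Col3a1 (chr1:45311288-45311587, plus strand): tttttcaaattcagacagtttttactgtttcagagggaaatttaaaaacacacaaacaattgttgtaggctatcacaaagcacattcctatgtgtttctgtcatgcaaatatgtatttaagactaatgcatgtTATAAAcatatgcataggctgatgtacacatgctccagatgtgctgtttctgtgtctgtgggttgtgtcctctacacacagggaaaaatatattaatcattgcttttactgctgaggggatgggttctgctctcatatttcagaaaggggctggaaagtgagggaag

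Postn (chr3:54360857-54361156, plus strand): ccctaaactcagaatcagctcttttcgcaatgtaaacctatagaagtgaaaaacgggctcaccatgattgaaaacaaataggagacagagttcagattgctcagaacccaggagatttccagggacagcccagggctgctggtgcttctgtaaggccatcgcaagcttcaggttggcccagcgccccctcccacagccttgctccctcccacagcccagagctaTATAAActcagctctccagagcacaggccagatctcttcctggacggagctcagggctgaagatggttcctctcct

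In the Postn window the match began 26 bases before the start, and in the Col3a1 window 117 bases before it. A second annotated start of Postn, farther upstream, had no match. Of all RefSeq promoter windows of this length, 13.6% held these letters.

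H19 had the highest ratio of the abundant genes. It is an imprinted long noncoding RNA, transcribed in the embryo from the maternal chromosome and largely silent after birth. It lies on chromosome 7 (chr7:142575529-142578143, minus strand). It stood at 275 CPM in the high cells (7500 UMIs) and at 40.7 CPM in the low cells, a ratio of 6.76 (6.44 to 7.09).

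The H19 level was uneven among the members. The median high cell had 0.149 UMIs per 10000, 10% of them had 10.2 or more, and the highest had 124. The 10% of members with the most H19 held 75.9% of its summed per-cell level, although 51.6% of them had at least 1 H19 UMI. The ratio was 14.1 against low cells under 2 Col3a1 UMIs per 10000. With every cell thinned to 5000 UMIs, 30.3% of high cells and 10.8% of low cells had at least 1 UMI, against 7.52% of myeloid-like cells. Myeloid-like cells were chosen with fewer than 3 UMIs of Rhox5 and Shisal2b together, so their share can understate the background of free tumor RNA.

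Igf2, the growth factor gene that shares its imprinted domain with H19, had 0 UMIs in the high cells and 1 UMI in the low cells. A count of 0 allows up to 3 UMIs as a one-sided limit, which differs from the 2-sided intervals given elsewhere. Of 28 imprinted genes, 6 passed the level filter and 3 of them were at least 2-fold higher, namely H19, Dcn and Igf2r, the last of which encodes the receptor that clears the Igf2 protein. Igf2r was at 37.5 and 17.2 CPM, a ratio of 2.18. Near H19, Mrpl23, a mitochondrial ribosomal protein gene 34782 bases away, was level at 176 and 174 CPM. Farther along, Lsp1 had a ratio of 2.57 and Tnni2, a troponin gene 131119 bases away, one of 4.32. These neighbors were named after their values were seen.

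Ratios of collagen genes lay above 1. Of 31 collagen genes other than Col3a1 and Col1a2, 13 passed the filter, all 13 of these were above 1, and 6 were at least 2-fold higher, with a median log2 ratio of 0.96 against 0.06 over all genes. Col5a2, which encodes a chain of type V collagen and lies 24615 bases from Col3a1, was at 55.7 CPM in the high and 11.8 CPM in the low cells, a ratio of 4.72 (4.29 to 5.19). Its partner chain gene Col5a1 was at 254 and 92.2 CPM, a ratio of 2.76 (2.66 to 2.86), and lies on another chromosome.

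Type VI collagen forms beaded filaments around cells. Its genes Col6a1 and Col6a2 are neighbors on chromosome 10, 85162 bases apart. Col6a1 was at 643 and 247 CPM, a ratio of 2.60 (2.54 to 2.66), and Col6a2 at 384 and 126 CPM, a ratio of 3.04 (2.95 to 3.14). Over the 730 high cells their levels had a Spearman rho of 0.771, and over the 955 low cells one of 0.701, as a description of cells that share 1 library. Col6a3, on chromosome 1, was higher by less, at 263 and 163 CPM. Col8a1, a short-chain collagen, was level at 41.1 and 39.0 CPM.

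Col1a1, the other chain of type I collagen, was at 222 CPM in the high and 66.3 CPM in the low cells, a ratio of 3.35 (3.21 to 3.49), or 9.89 against low cells under 2 Col3a1 UMIs per 10000. Unlike the type V and VI genes, it did not follow Col3a1 among the members. Its Spearman rho with Col3a1 over the high cells was -0.00167, where Col6a1 had 0.476 and Fn1 0.516. Over the low cells Col1a1 had a rho of 0.234, Col6a1 0.543 and Fn1 0.288. The median high cell had 0.237 Col1a1 UMIs per 10000, and the highest had 123. Col1a2 was held below 2 per 10000 by the rule, so the cells were also chosen on a gene of the same collagen.

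Genes that modify and cross-link collagen were higher by less than the collagens. Of 26 such genes, 20 were compared, 19 had ratios above 1 and 1 was at least 2-fold higher, with a median log2 ratio of 0.48. That gene was Bmp1, a protease that trims procollagen, at 59.9 and 24.9 CPM. Pcolce, which enhances that cleavage, was at 291 and 166 CPM. Its relative Pcolce2 had a ratio below 1, at 8.88 and 13.5 CPM.

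Adhesive glycoproteins of the matrix included several of the highest ratios. Of 50 such genes, 22 were compared, 20 had ratios above 1 and 10 were at least 2-fold higher, with a median log2 ratio of 0.78. Fn1, which encodes fibronectin, was the most abundant of those 10, at 1152 CPM in the high cells (31373 UMIs) and 340 CPM in the low cells, a ratio of 3.38 (3.32 to 3.45). The middle of the high cells lay between 3.96 and 17.4 Fn1 UMIs per 10000 (quartiles), and that of the low cells between 1.01 and 4.41. Of the low cells 7.75% exceeded the median of the high cells, and 13.0% of high cells lay under the low median, so the groups overlapped.

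Postn encodes periostin, a matricellular protein of remodeling tissue. It was at 127 and 25.8 CPM, a ratio of 4.91 (4.61 to 5.23), but it was detected in 44.7% of high cells. The median high cell had no UMI, the highest had 74.3 UMIs per 10000, and the top 10% of members held 77.1% of the summed level. After thinning, 24.0% of high cells had a Postn UMI, against 7.85% of low and 5.62% of myeloid-like cells.

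Emilin1, an elastic fiber glycoprotein, had a ratio of 4.16 at 64.2 and 15.4 CPM. Matn2, a matrilin that bridges matrix fibers, had one of 2.74 at 197 and 71.9 CPM. Sparc, a collagen-binding glycoprotein, was as abundant as Fn1 in the high cells, at 1210 CPM, and less different, with a ratio of 1.71. Lower in the high cells were Thbs2, at 104 and 122 CPM, and Spp1, the gene of osteopontin, at 132 and 185 CPM.

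Among proteoglycans, 12 of 23 genes were compared, 10 had ratios above 1 and 6 were at least 2-fold higher, with a median log2 ratio of 1.02. Dcn, the gene of decorin, which binds collagen fibrils, was the most abundant, at 2747 and 1257 CPM, a ratio of 2.19 (2.16 to 2.21). Vcan, the large proteoglycan versican, was at 283 and 115 CPM.

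The largest ratios of all compared genes were those of Aspn and Ogn, small leucine-rich proteoglycans that lie 40481 bases apart on chromosome 13. Aspn was at 19.6 CPM in the high cells and 0.592 CPM in the low cells, a ratio of 33.1 (23.1 to 49.3), and Ogn at 34.4 and 3.07 CPM, a ratio of 11.2 (9.45 to 13.3). Within cycling cells alone the ratios were 11.6 and 5.81. Either transcript was detected in few cells. Aspn UMIs were found in 14.5% of high cells and 1.99% of low cells, and the top 10% of members held 94.9% of the Aspn and 88.7% of the Ogn level. Of the 73 members with the most Aspn, 39 were also among the 73 with the most Ogn. Omd, the gene between them, had 77 UMIs in the high and 38 in the low cells, a ratio of 3.90 (2.61 to 5.91).

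Cilp, a cartilage matrix protein gene, had a ratio of 10.9 at 45.6 and 4.18 CPM, and Cd248, which encodes the stromal receptor endosialin, one of 5.44 at 28.2 and 5.19 CPM. Both fell outside the rule for named genes and were chosen after their values were seen. Genes outside the matrix were also among the 15 highest ratios. They included Apod, the lipid carrier apolipoprotein D, at 178 and 66.4 CPM, and Gsn, the actin-severing protein gelsolin, at 112 and 43.3 CPM. Tent5a, a poly(A) polymerase gene, was at 83.7 and 31.1 CPM, and Trp53i11, a p53-inducible gene, at 95.3 and 34.2 CPM.

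Most compared matrix proteases and inhibitors were higher in the high cells, among them all compared metalloproteinases. Mmp14, a membrane-bound collagenase, was at 266 and 138 CPM, Mmp2 at 44.3 and 24.2 CPM, Mmp9 at 127 and 72.4 CPM, and Mmp11 at 27.9 and 16.0 CPM. Of 12 proteases and inhibitors compared, 9 had ratios above 1 and 3 below 1. At least 2-fold higher were 2, among them Adamts1, a secreted metalloprotease, with a ratio of 2.05. Plaur, the receptor of urokinase, was lower, at 27.0 and 50.5 CPM. So were Ctsl, the most abundant protease of the list, at 1596 and 1811 CPM, and Timp1, an inhibitor, at 147 and 158 CPM. Of 8 integrins and matrix receptors, 1 was at least 2-fold higher, Itgb5, at 53.6 and 22.8 CPM, and Cd44, a hyaluronan receptor, was lower, at 109 and 148 CPM.

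**Figure D3:**
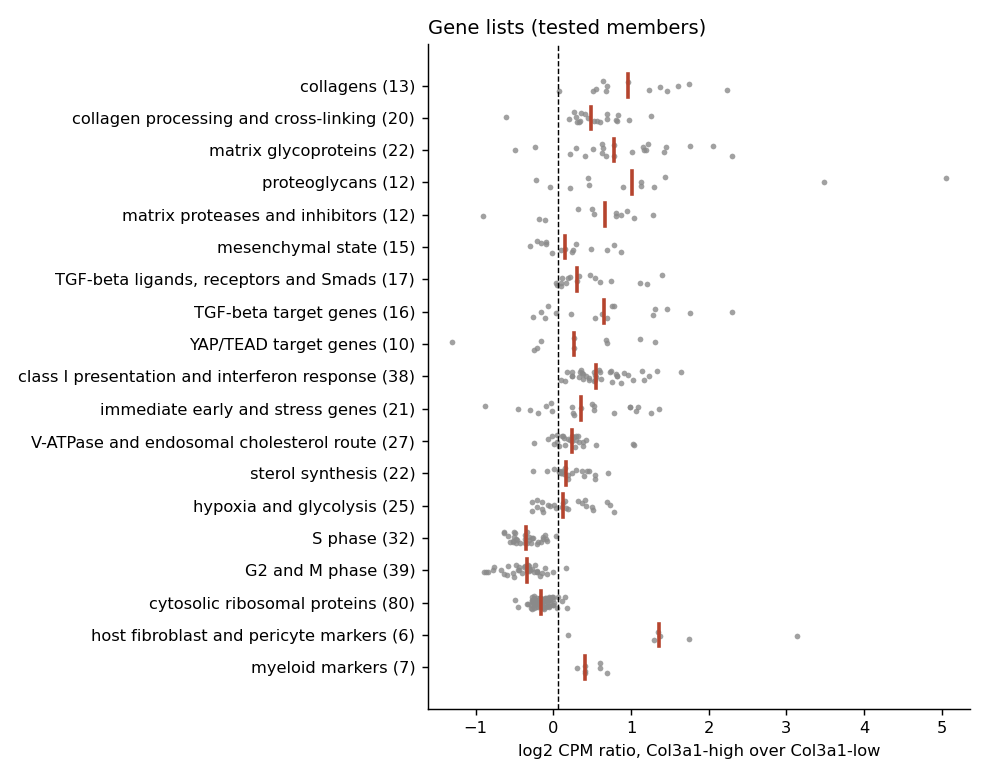
Log2 CPM ratio of the high over the low cells for the compared members of 19 gene lists, with the number compared in parentheses. Each gray point is a gene, red bars are list medians, and the dashed line is the median of all 7092 genes; matrix lists lie to the right and cell cycle and ribosomal lists to the left.

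The general mesenchymal genes differed little. Of 15 compared, 9 had ratios above 1 and none reached 2-fold in either direction, with a median log2 ratio of 0.16. Vim, an intermediate filament gene, was at 3160 and 3363 CPM. Zeb1 was at 66.3 and 38.4 CPM and Twist2 at 35.4 and 43.8 CPM, both transcription factors of mesenchymal cells.

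Transforming growth factor beta (TGF-beta) signals through paired receptors and Smad proteins and induces matrix genes in many cell types. All 17 compared genes of ligands, receptors and Smads had ratios above 1, against 4023 of all 7092 genes. Of the 17, 3 were at least 2-fold higher, against 2.0% of all genes, with a median log2 ratio of 0.31. The ligand gene Tgfb3 was at 40.1 and 15.2 CPM, and the receptor gene Tgfbr2 at 45.2 and 19.6 CPM. Tgfb1, the most abundant of the 3 ligand genes in this library's tumor cells, was level, at 60.01 and 55.6 CPM. Fstl1, a secreted follistatin relative, was at 372 and 171 CPM.

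Of 16 compared TGF-beta target genes, 12 had ratios above 1 and 5 were at least 2-fold higher, but 3 of those 5, Postn, Fn1 and Col5a1, also stand in the matrix lists. Id3, an inhibitor of helix-loop-helix transcription factors, was also among the 5, at 79.5 and 32.2 CPM. Pmepa1, a feedback inhibitor of the pathway, was at 676 and 402 CPM, and Smad7, another, was level at 39.3 and 38.2 CPM.

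Targets of YAP and TEAD, which respond to stiffness and cell shape, split. Of 10 compared, 2 were at least 2-fold higher and 1 at least 2-fold lower. F3, the gene of tissue factor, was at 103 and 41.6 CPM, and Ccn1 at 85.1 and 53.1 CPM. Ankrd1, a cardiac and muscle ankyrin repeat gene, was at 27.9 and 68.4 CPM, a ratio of 0.407 (0.376 to 0.440). Receptors for platelet-derived growth factor, which fibroblasts carry, were both higher, Pdgfra at 60.5 and 23.8 CPM and Pdgfrb at 34.0 and 13.9 CPM.

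Genes of the interferon response and of class I presentation were higher in the high cells. Interferons raise class I molecules, the peptide supply for them, and chemokines that attract T cells. All 38 compared genes of the list had ratios above 1, and 6 were at least 2-fold higher, with a median log2 ratio of 0.54. Over all 7092 genes, 4023 had ratios above 1. The list summed to 22660 CPM in the high cells and 16120 CPM in the low cells.

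Cxcl9, a T-cell attractant, was at 208 and 66.4 CPM, a ratio of 3.13 (2.998 to 3.26). Its neighbor Cxcl10, a chemokine with the same receptor, was more abundant and less different, at 1242 and 930 CPM. Cxcl9 was again uneven, with a median of 0.231 UMIs per 10000 in the high cells, a highest cell at 113, and 71.7% of the level in the top 10% of members. The class I genes were present in every high cell. B2m, the light chain of class I, was at 3541 and 2324 CPM, H2-K1 at 2635 and 1753 CPM, and H2-D1 at 2820 and 1941 CPM. Their cell medians were 36.6, 25.2 and 26.4 UMIs per 10000 in the high cells and 23.2, 16.0 and 18.2 in the low cells.

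Ifi27l2a, an interferon-induced mitochondrial protein gene, had a ratio of 4.11 at 393 and 95.7 CPM. AW112010, a transcript induced by interferon, had one of 2.68 at 714 and 266 CPM. The immunoproteasome subunit Psmb8 differed least in the list, at 1338 and 1249 CPM.

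Myeloid cells also express these genes, with Cxcl9 at 988 CPM and Ifi27l2a at 1537 CPM in the myeloid-like cells. Of 17 myeloid markers, 7 passed the filter in the tumor cells, all with ratios above 1. The list summed to 519 CPM in the high cells and 387 CPM in the low cells, against 79230 CPM in the myeloid-like cells. The myeloid list was below 1% of its myeloid-like level in both groups, but the rule held Tyrobp and Fcer1g low in the tumor cells. The myeloid-like cells were chosen by at least 10 UMIs of them per 10000. These sums therefore partly describe that choice, and the part of myeloid RNA in the interferon genes was not tested.

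The promoters of the interferon list were searched for the letters that interferon-activated factors are known to bind. The letters TTTCNNTTT, the core of the interferon-stimulated response element (ISRE), stood on either strand in the windows of 18 of the 34 list genes with a window (52.9%), against 12.1% of all 27025 genes with a window and 9.52% of the compared genes. The letters TTCNNNGAA of the gamma-activated site stood in 26.5% of the list genes and 9.55% of all genes, and in 2 windows a match overlapped an ISRE match. The letters TATAAA stood in 26.5% of the list genes and 15.7% of all genes. The AP-1 letters TGANTCA stood in 20.6% and 8.97%, and the TEAD letters GGAATG in 8.82% and 16.6%. Of the 142 genes at least 2-fold higher, only 98 had a window, under 80%, so a motif share over them would be void. A match is a description of the letters and not of binding. The list was written as interferon and class I genes, and no level entered the search of it. Its motif shares therefore describe the list and not the high cells.

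For 4 list genes the promoter is shown with the ISRE core in capitals, namely Ifit1 and Gbp5, which were at least 2-fold higher, and Gbp2 and B2m, which were higher by less.

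Ifit1 (chr19:34640639-34640938, plus strand): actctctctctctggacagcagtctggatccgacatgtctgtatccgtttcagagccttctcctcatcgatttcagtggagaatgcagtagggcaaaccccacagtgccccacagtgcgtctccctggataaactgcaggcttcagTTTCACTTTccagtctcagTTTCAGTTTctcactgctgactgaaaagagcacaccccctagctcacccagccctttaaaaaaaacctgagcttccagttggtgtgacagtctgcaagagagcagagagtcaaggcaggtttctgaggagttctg

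Gbp5 (chr3:142496684-142496983, plus strand): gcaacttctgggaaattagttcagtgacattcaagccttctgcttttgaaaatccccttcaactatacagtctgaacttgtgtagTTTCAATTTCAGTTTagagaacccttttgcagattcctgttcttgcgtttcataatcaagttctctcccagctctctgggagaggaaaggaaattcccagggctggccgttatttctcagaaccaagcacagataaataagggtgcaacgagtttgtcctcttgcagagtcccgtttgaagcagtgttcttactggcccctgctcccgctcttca

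Gbp2 (chr3:142620413-142620712, plus strand): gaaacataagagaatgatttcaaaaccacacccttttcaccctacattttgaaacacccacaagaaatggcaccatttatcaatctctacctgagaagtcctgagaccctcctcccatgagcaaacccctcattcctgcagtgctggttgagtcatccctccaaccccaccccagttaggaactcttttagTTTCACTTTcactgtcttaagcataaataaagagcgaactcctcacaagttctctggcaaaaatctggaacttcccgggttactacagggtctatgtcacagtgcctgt

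B2m (chr2:122147437-122147736, plus strand): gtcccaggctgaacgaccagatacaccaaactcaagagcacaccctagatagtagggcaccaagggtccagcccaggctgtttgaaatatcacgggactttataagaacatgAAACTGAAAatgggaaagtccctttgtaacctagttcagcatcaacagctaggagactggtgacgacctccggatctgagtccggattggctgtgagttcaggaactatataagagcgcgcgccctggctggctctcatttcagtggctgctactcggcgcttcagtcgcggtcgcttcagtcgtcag

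Ifit1, an RNA-binding antiviral gene, held 2 matches, 104 and 85 bases before its start, and was at 202 and 91.9 CPM. Gbp5, a guanylate-binding protein gene, held 2 overlapping matches and was at 15.01 and 6.39 CPM. Gbp2 held 1 match 59 bases before its start and was at 505 and 287 CPM, a ratio of 1.76. B2m held 1 match 138 bases before its start, with a ratio of 1.52.

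Cycling cells were fewer among the high cells. A cell counted as cycling when, after thinning to 5000 UMIs, it held at least 2 UMIs of Mki67, Top2a, Cdk1, Ccna2, Ccnb1 and Birc5 together. Of the high cells, 44.4% were cycling (40.7% to 48.1%), against 68.2% of the low cells (65.1% to 71.1%). Without thinning the shares were 79.5% and 92.8%, in the same order.

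Genes of both phases were lower by modest amounts. Of 32 compared S phase genes, 31 had ratios below 1, and of 39 compared G2 and M phase genes, 37 did, with median log2 ratios of -0.35 and -0.34 and none past 2-fold. Ube2c, which helps the anaphase-promoting complex mark proteins, was at 207 and 386 CPM, and Cenpa, the centromere histone, at 76.6 and 139 CPM. Mki67 was an exception, at 79.7 and 71.1 CPM. In a comparison of cycling cells alone the medians were 0.03 for S phase and 0.12 for G2 and M phase, and among the other cells they were -0.67 and -0.86. Cell cycle genes made that split, so these medians partly describe the choice. Many of the other cells passed the same limit without thinning.

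Among genes that drive growth, Ccnd1, the gene of cyclin D1, was the most abundant of the lowest ratios, at 348 and 665 CPM, a ratio of 0.523 (0.511 to 0.535). Its median was 1.97 UMIs per 10000 in the high cells and 5.81 in the low cells, and 83.0% of low cells exceeded the high median. Myc was at 27.6 and 44.7 CPM. Hmga1, a chromatin architecture gene, had the lowest ratio of the abundant genes, 0.409 (0.384 to 0.437), at 41.5 and 101 CPM. Odc1, the entry enzyme of polyamine synthesis, was at 113 and 229 CPM, and Psat1, an enzyme of serine synthesis, at 68.9 and 132 CPM.

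Tnfrsf12a, the receptor of the cytokine TWEAK, was at 143 and 329 CPM, and Fosl1, an AP-1 subunit, at 67.8 and 125 CPM. Hbegf, a ligand of the epidermal growth factor receptor, was at 16.4 and 39.9 CPM. Klra4, a natural killer receptor gene, was at 97.1 CPM in the high cells and 222 CPM in the low cells, with UMIs in 93.1% of low cells, although it stood at 11.1 CPM in the myeloid-like cells. Of 12 T and NK markers, none passed the filter, and they summed to 4.48 and 7.63 CPM.

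Other low ratios belonged to Tnnt2, a cardiac troponin gene at 37.1 and 81.9 CPM, Cryab, a small heat shock protein gene at 38.3 and 77.0 CPM, and Coq8a, a gene of ubiquinone synthesis at 34.8 and 67.9 CPM. Mrto4, which matures the large ribosomal subunit, was at 131 and 232 CPM, Timm8a1, a mitochondrial import gene, at 74.8 and 141 CPM, and Dusp9, a phosphatase of MAP kinases, at 59.1 and 105 CPM. The lowest ratios of all compared genes were those of the granzyme genes Gzmg and Gzmf, which were chosen after their values were seen. Gzmg UMIs stood in only 0.733% of the low cells, the highest at 94.4 per 10000, so few cells held the transcript.

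Ribosomal protein genes, 80 of which were compared, had ratios below 1 in 74 cases and a median log2 ratio of -0.16, and summed to 270600 CPM in the high and 299700 CPM in the low cells. All 12 compared mitochondrial transcripts were higher, with a median log2 ratio of 0.53. Malat1, a nuclear noncoding RNA chosen after its values were seen, was at 5619 and 2241 CPM. The part of nuclear and mitochondrial RNA content in the other ratios was not tested.

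Immediate early genes, which answer to signals and to cell dissociation within minutes, were mixed. Of 21 compared, 4 were at least 2-fold higher, Egr1, Fos, Ier2 and Dusp1, with Fos at 250 and 105 CPM, and Fosl1 and Hsp90aa1 were lower. The part of handling was not tested. Hypoxia and glycolysis genes gave none of 25 past 2-fold, with Ldha at 1033 and 1250 CPM.

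The route that the study examined, the vacuolar proton pump and endosomal cholesterol, had 27 compared genes. Ratios were above 1 for 24 of them, against 4023 of all 7092 genes, and the median log2 ratio was 0.24 against 0.06. The genes at least 2-fold higher were 2, Lipa, the lysosomal cholesterol esterase, at 90.3 and 44.0 CPM, and Lrp1, an endocytic receptor, at 76.6 and 37.5 CPM. Atp6v0a1, a pump subunit, was below the filter, at 9.54 and 6.70 CPM (260 and 351 UMIs). None of 22 sterol synthesis genes passed 2-fold, and Hmgcs1 had the highest of their ratios, 1.63.

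The members also differed among themselves along Col3a1. With the tumor cells divided by Col3a1 per 10000 into 0 (21 cells), above 0 to 2 (232), 2 to 10 (702), 10 to 20 (378), 20 to 40 (224) and 40 and over (128), most of the leading genes changed gradually. H19 stood at 36.7, 19.2, 47.5, 135, 268 and 998 CPM in that order. Fn1 stood at 85.5, 269, 364, 713, 1344 and 2948 CPM. Ccnd1 stood at 428, 701, 656, 439, 250 and 98.3 CPM. H19 thus climbed steeply at the top of the range, Fn1 climbed throughout, and Ccnd1 fell from the second bin on.

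Aspn stayed at or below 1.43 CPM up to the bin of 10 to 20 and reached 18.9 and 113 CPM in the highest bins. Col1a1 peaked in the bin of 20 to 40, at 303 CPM, and stood at 258 CPM above it. Rhox5 stayed between 601 and 740 CPM over the 6 bins. Shisal2b, which also chose the tumor cells, fell from bin to bin, at 318, 267, 246, 180, 114 and 97.1 CPM. Tgfb1 was at 60.9, 58.1 and 59.8 CPM in the bins of the high cells, with no trend.

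**Figure D4:**
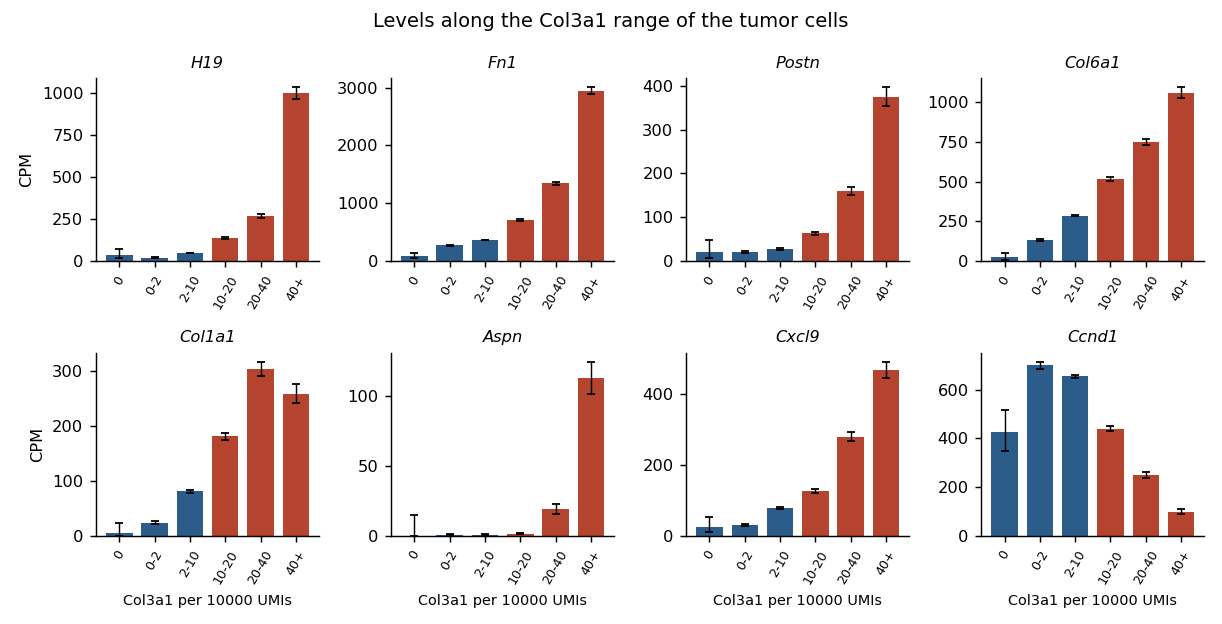
CPM of 8 genes in tumor cells divided by their Col3a1 level (UMIs per 10000), with blue bars for the low and red bars for the high cells and 95% exact Poisson intervals for counting error. H19, Postn and Aspn climb most in the highest bin, Col1a1 peaks at 20 to 40, and Ccnd1 declines to 98.3 CPM.

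The share of cycling cells over the same bins was 66.7%, 72.0%, 67.0%, 54.5%, 37.1% and 27.3%. In the highest bin the interval was 19.8% to 35.9%. The interferon and class I list summed to 12980 CPM in the first bin and 29970 CPM in the last, and the ribosomal list to 383400 and 245200 CPM. Median depth over the bins was 8911, 52012, 54440, 42237, 29507 and 23460 UMIs. The 21 cells without a Col3a1 UMI were thus the shallowest, and their median mitochondrial share was 0.0938%, against 1.97% to 3.79% in the other bins. The part of depth was not tested beyond the repeats by depth in the closing section.

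**Figure D5:**
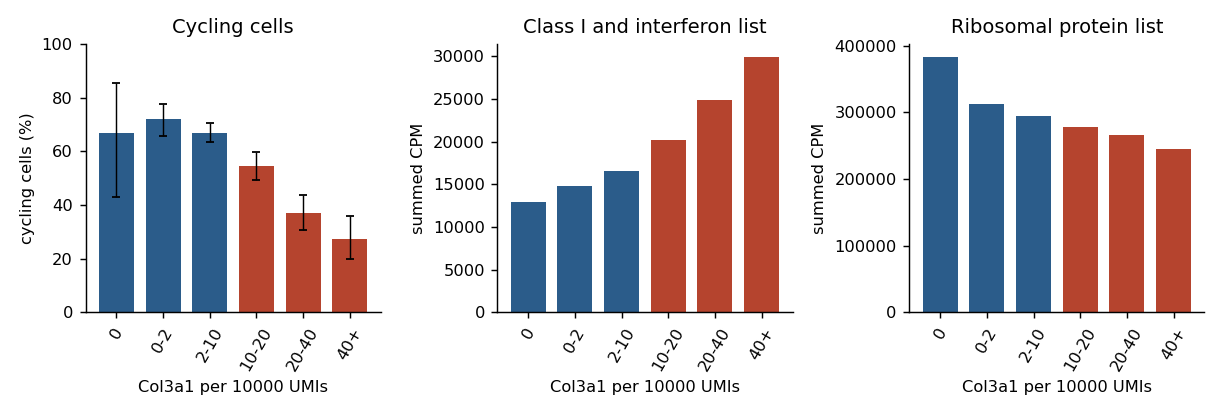
Share of cycling cells in percent, with exact Clopper-Pearson intervals, and summed CPM of the interferon and ribosomal lists, in tumor cells divided by Col3a1 (UMIs per 10000). Blue bars are low and red bars high cells; the cycling share is 27.3% and the interferon sum 29970 CPM in the highest bin.

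The strongest cells for each gene were only partly the same cells. Of the 73 members with the most Col3a1, 33 were among the 73 with the most Fn1, 31 among those with the most Aspn, 31 with the most Dpt, 29 with the most Col6a1, 26 with the most H19, and 9 each with the most Col1a1 and Cxcl9. Fn1 and Col1a1 shared 3 cells. The 73 with the most Col3a1 had a median of 78.4 Col3a1 UMIs per 10000 and 21554 UMIs, and 16.4% of them were cycling. Fn1 and Aspn shared 30. Each set of 73 was 10% of the members, and no test of these overlaps was made.

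Fibroblast-like cells, the host cells of the library in which Col3a1 was high, are defined here by at least 10 Col1a2 UMIs per 10000, few UMIs of Rhox5 and Shisal2b, and few of the myeloid adaptors. Only 21 cells met that definition. Per 100 Col3a1 UMIs, they had 72.0 of Col1a2 and 70.1 of Col1a1, whereas the high tumor cells had 0.612 and 9.15. The Col1a2 value is set by the rule. Col6a1 stood at 26.5 per 100 Col3a1 UMIs in the high tumor cells and 6.48 in the fibroblast-like cells, and Fn1 at 47.4 and 37.0. These orders rest on division by Col3a1. In CPM both genes were lower in the high tumor cells, Col6a1 at 643 against 985 and Fn1 at 1152 against 5626.

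Dcn was at 2747 CPM in the high tumor cells and 2625 CPM in the fibroblast-like cells (ratio 1.05, interval 0.975 to 1.12), and Sparc at 1210 and 11570 CPM. Thy1, a surface marker of fibroblasts, had 8 UMIs in the 730 high cells and stood at 355 CPM in the fibroblast-like cells, and Acta2, smooth muscle actin, was at 7.82 and 1045 CPM. The list of 20 fibroblast and pericyte markers summed to 569 CPM in the high cells, 236 CPM in the low cells and 20130 CPM in the fibroblast-like cells, with no marker at 0 in the high cells. Of its 6 compared members 5 were at least 2-fold higher, led by Dpt, the gene of dermatopontin, at 22.6 and 2.58 CPM. The part of fibroblast RNA in the matrix genes was not tested.

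By position, the genes at least 2-fold higher were spread over the genome. Each of the 19 autosomes held at least 2 of them, from 0.883% of the compared genes of chromosome 2 to 3.77% of those of chromosome 1, and median log2 ratios of the autosomes ran from 0.02 to 0.13. Among the nearest 3 genes on either side with at least 100 UMIs, the neighbors of Postn had ratios from 0.670 for Exosc8 to 1.41 for Proser1, and those of Fn1 from 0.575 for Ikzf2 to 1.39 for Smarcal1. None of these reached 2-fold in either direction, in contrast to the neighbors of H19, Col6a1 and Aspn given above. On the other side of Col3a1 from Col5a2, the nearest such gene was Gulp1, 514700 bases away, with a ratio of 1.75. These neighbors were listed after their values were seen.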

How the data were processed

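The deposited matrix holds UMI counts per gene and cell, which the authors made with Cell Ranger on GRCm38 (mm10). Version 5.0.1 stands in the file header and CellRanger V3 in the methods. FastQC and Seurat are further tools in the submitters' processing notes. The library held 106631000 UMIs over 32285 genes. The members and gene lists were chosen with earlier results of these data known. Counts were summed over the cells of a group and divided by the group's total. Genes averaging at least 10 CPM over both groups were compared, without the 6 genes of the rule, and 2-fold was the limit for a call. Ratios have exact conditional Poisson intervals and shares exact Clopper-Pearson intervals, which cover counting error only. With 1 library there was no test and no p-value. Named genes were the markers Rhox5, Shisal2b, Col3a1, Postn, H19 and Fn1, the 15 highest and 15 lowest ratios at 50 CPM or more, and examples with the highest level or largest ratio of their list. Doublets were kept in the values given, and an alternative removed 225 cells resembling simulated doublets, 87 of them tumor cells. Gene positions are from GENCODE M21, and promoters from RefSeq. The steps were tested on simulated data. The tools were Python 3.11.15 with pandas 2.3.3, scipy 1.17.1, matplotlib 3.10.9, numpy 2.4.6 and scikit-learn 1.9.0. The Atp6v0a1-knockdown tumors were not analysed here. Some genes of the lists are not reported here.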

Additional observations from a re-analysis of the deposited data

How the results depend on the processing

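No paired analysis was possible because there was 1 sample. All 39 gene ratios computed under 13 alternatives kept their direction, as did 21 of 28 list medians. Their sizes moved more, and 249 of the gene values lay outside the interval of the value given in the report. Most of the 39 genes were chosen for the highest or lowest ratios in these same cells. Every alternative also used cells of the same library. A kept direction was therefore likely from the choice of genes, and it is no independent check of the ratios. Aspn ranged from 11.6 in cycling cells to 61.9 against low cells under 2 per 10000, Ogn from 5.81 to 14.4, Dpt from 5.23 to 26.0, H19 from 5.63 to 14.1 and Col1a1 from 2.74 to 9.89. Odc1 stayed at least 2-fold lower in 8 of the 13 alternatives, Cryab in 9 and Tnnt2 in 10. The exceptions included S phase (0.03) and G2 and M phase (0.12) in cycling cells alone. The share of high cells was 65.0% at a Col3a1 limit of 5, 20.9% at 20, 57.2% of non-cycling and 33.2% of cycling cells, and 57.6% of cells with 5000 to 20000 UMIs against 39.9% above 20000. Genes at least 2-fold higher numbered 286 at the limit of 20, 341 against low cells under 2 per 10000, 512 at 5000 to 20000 UMIs, 2307 with no minimum level and 50 at 50 CPM. Genes at least 2-fold lower numbered 112, 65, 130, 2122 and 6 in the same order, with 42 in non-cycling and 10 in cycling cells. At 5000 to 20000 UMIs, where median depth was 13087 and 12796, the counts shared 114 of the 142 higher and 7 of the 16 lower genes, and AW112010 had a ratio of 1.95. The cycling share of high cells was 51.6% at the limit of 5, 33.5% at 20, 38.9% at 5000 to 20000 UMIs, 79.5% without thinning, 62.1% with 1 UMI required and 29.7% with 4, each time below the low cells (69.6%, 64.3%, 63.6%, 92.8%, 81.3% and 45.9%). The causes were not tested. With 5 tumors in 1 library, variation between tumors could not be measured.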

Other observations

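Among secreted signals, Ccl8, a chemokine for monocytes, was at 32.6 CPM in the high and 9.62 CPM in the low cells, a ratio of 3.39, whereas the abundant chemokine gene Ccl2 was at 1732 and 1478 CPM. Ccl8 UMIs stood in 33.7% of high and 30.05% of low cells, and the top 10% of members held 76.7% of its level. Myeloid-like cells also held Ccl8, with UMIs in 47.15% of them, and the part of myeloid RNA was not tested. Of 14 compared genes of secreted signals, 1 was at least 2-fold higher, with a median log2 ratio of 0.21 against 0.06 over all genes.

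Among endothelial markers 2 of 10 were compared, and Fabp4, a fatty acid binding protein also found in macrophages, was at 37.7 and 14.5 CPM. Among Wnt genes Dkk2, a secreted inhibitor, had a ratio of 2.02, with 1 of 6 compared genes at least 2-fold higher and a list median of -0.12. Among cell cycle inhibitors and p53 targets Btg2, an antiproliferative gene, had a ratio of 2.79, and Cdkn1a, which encodes p21, one of 1.03.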
